A study of Mus musculus with 12 samples.

Results

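The Ifi200 family is a cluster of interferon-inducible genes on mouse chromosome 1, and 10 of its genes were followed here: Aim2, Ifi203, Ifi204, Ifi206, Ifi207, Ifi208, Ifi209, Ifi211, Ifi213 and Mndal. They were found by matching the gene identifiers of both count tables to GENCODE mouse release M21, and all 10 were present among 55487 identifiers and passed the filter on low counts in both tables. The family was chosen by the expression values of Ifi206 and Ifi209, after these had been seen to differ between groups in these data. The values of those 2 genes are therefore given as a description with no test, and the other 8 members are counted apart from them.

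Sequenced RNA came from 12 samples of mouse OT-1 T cells of the CD8+ lineage, a transgenic line in which these cells carry a single receptor for an ovalbumin peptide. Female and Male (3 samples each) were splenic cells of either sex activated with beads against CD3 and CD28 and recombinant mouse IL2 for 3 days. WT and KD (3 samples each) came from male cells alone, prepared as another batch, electroporated and kept in culture for 3 days. In KD the electroporation mix held Cas9 and guide RNA to Kdm5d, a Y-linked histone demethylase gene, while in WT it held the guide RNA alone. The age of the mice and the number behind the samples were not stated, so the p-values measure the spread between these samples, which may be technical. Since Cas9 was present in KD and absent in WT, effects of Cas9 itself and of lower Kdm5d expression cannot be told apart.

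Ifi200 genes encode PYHIN proteins, most of which carry a pyrin domain for contacts with other proteins and a HIN domain that binds double-stranded DNA. Aim2 is the member that detects DNA in the cytosol and assembles an inflammasome with the adaptor Pycard and caspase-1. Many other members are nuclear proteins, and their transcription is induced by interferons through IRF and STAT factors that bind promoter elements known as ISRE and GAS.

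The cluster covers chromosome 1 from 173350879 to 174031810 on GRCm38, a stretch of 680.9 kb. Annotation placed 14 family genes there, the 10 members and Ifi214, Ifi203-ps, Ifi202b and Ifi205. On the plus strand lie Aim2 (chr1:173350879-173466040), Ifi209 (chr1:173630917-173647928) and Ifi208 (chr1:173673675-173698395). On the minus strand lie Ifi206 (chr1:173468485-173491041), Ifi213 (chr1:173566283-173599274), Ifi207 (chr1:173723427-173741747), Ifi204 (chr1:173747293-173766943), Mndal (chr1:173849126-173942491), Ifi211 (chr1:173896345-173913046) and Ifi203 (chr1:173920407-173942672). The gene body of Mndal spans Ifi211 and overlaps Ifi203 on the same strand, and its exons share 37 bases with those of Ifi203. Promoter sequence from RefSeq (GRCm38.p6) was found for 9 of the 10 members, with Ifi204 missing. The 250 bases before each RefSeq start, which can differ from the end of the gene body given above, were searched on both strands. The motifs were an ISRE-type motif (GAAA, any 2 bases, GAAA) and a GAS-type motif (TTC, any 3 bases, GAA). The ISRE-type motif was found in 7 of the 9 members and in 3.46% of 27025 genes with a promoter entry. The GAS-type motif was found in 0 of the 9 and in 8.13% of the genes.

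In each of the 7 members with an ISRE-type match, a shared stretch carried a match. It is shown because its bases in capitals differ from those of Ifi206 by no more than a single base. Each line gives 30 bases, 5′ to 3′ on the strand of the gene, with the closest match to the Ifi206 element in capitals.
Ifi206 (chr1:173491339-173491368, minus strand): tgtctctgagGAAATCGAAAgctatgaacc
Ifi213 (chr1:173599326-173599355, minus strand): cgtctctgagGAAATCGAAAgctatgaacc
Ifi208 (chr1:173673597-173673626, plus strand): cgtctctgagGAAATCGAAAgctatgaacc
Ifi207 (chr1:173741831-173741860, minus strand): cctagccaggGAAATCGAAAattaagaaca
Mndal (chr1:173880204-173880233, minus strand): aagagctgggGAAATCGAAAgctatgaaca
Ifi203 (chr1:173942508-173942537, minus strand): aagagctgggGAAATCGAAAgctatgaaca
Ifi211 (chr1:173913064-173913093, minus strand): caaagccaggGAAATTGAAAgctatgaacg
Ifi209 (chr1:173630770-173630799, plus strand): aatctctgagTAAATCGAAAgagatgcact
The 10 bases GAAATCGAAA, which are an instance of the ISRE-type motif and were taken from Ifi206 after the promoters had been read, stood in 6 members. Counted from 1 at the 5′ end of the capitals, Ifi211 carried the substitution C6T, which keeps the ISRE-type motif, and Ifi209 carried G1T, which removes it. Over all promoter entries the 10 bases GAAATCGAAA were found in 13 genes on either strand, of which 7 were genes of this cluster (the 6 members and Ifi214). In Aim2 the closest stretch on the strand of the gene, the only strand compared for mismatches, had 4 mismatches. The RefSeq start searched for Aim2, 173420604, lies inside its gene body, and the bases before the gene body at 173350879 were not searched. Ifi203 and Mndal each have another RefSeq start, at 173942672 and 173879958. Before these the closest stretch on the strand of the gene had 4 and 3 mismatches. An ISRE-type match on the opposite strand (TTTCTCTTTC as read on the strand of the gene) lay 45 to 54 bases before the Mndal start at 173879958. Both starts of Mndal (173880187 and 173879958) lie inside its gene body. The bases before its 5′ end at 173942491 were not searched as its promoter. The elements shown began between 35 and 79 bases before the RefSeq start. A match is a description of the letters and not evidence of binding.

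Ifi206 and Ifi209 are the 2 members that led to the choice of the family. The 100 bases directly before their RefSeq starts are given below with the same stretch in capitals.
Ifi206 (chr1:173491319-173491418, minus strand): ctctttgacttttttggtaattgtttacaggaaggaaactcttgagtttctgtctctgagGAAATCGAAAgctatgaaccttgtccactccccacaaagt
Ifi209 (chr1:173630759-173630858, plus strand): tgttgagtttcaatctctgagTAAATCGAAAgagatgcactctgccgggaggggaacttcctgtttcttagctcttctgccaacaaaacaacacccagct

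Library totals were between 78748647 and 110803318 counts. The Kdm5d check matched the labels: Female libraries held 0, 2 and 0 counts, Male 4755, 4584 and 4616, WT 5290, 5001 and 5091, and KD 1714, 2364 and 2210. In CPM, counts scaled to the size of the library, the gene was at 50.9 ± 2.22 (SD, n = 3) in WT and 22.0 ± 0.763 (SD, n = 3) in KD, or -1.21 in log2 units (standard error 0.045, adjusted p 3.13e-08 by edgeR; exact two-sided permutation p 0.1, the smallest that 3 against 3 allow). The 6 CD8 T cell markers summed to 2334 to 2387 CPM in Female, 2170 to 2198 in Male, 2584 to 2616 in WT and 2466 to 2504 in KD. Of these 6 markers 4 were called lower in Male and 2 lower in KD, against 26.3% and 18.4% of all genes tested. The macrophage or monocyte list summed to 2.30 to 3.05 CPM in Female, 3.32 to 3.54 in Male, 6.22 to 7.23 in WT and 4.53 to 5.38 in KD, the same order of groups within each table as the family. Most of that came from Cd68, at 2.02 to 2.24 CPM in Female, 2.99 to 3.17 in Male, 5.76 to 6.53 in WT and 3.82 to 4.53 in KD, and of the other defining genes Adgre1 and Lyz2 held at most 6 and 10 counts in any library. The dendritic cell list stood at 3.41 to 4.22 CPM in Female and 2.50 to 3.19 in Male, opposite to the family. It was also lower in KD (6.25 to 6.41 CPM in WT, 4.13 to 4.93 in KD). Of its genes, Xcr1 fell from 2.78 CPM in WT to 1.05 in KD, while Zbtb46 was at 3.46 and 3.47. Siglech was at 0 and Flt3 at up to 12 counts. The CD4 T cell list stood at 3.49 to 5.11 CPM in Female and 4.93 to 6.31 in Male, which overlapped. It was at 4.04 to 4.37 CPM in WT and 2.31 to 3.32 in KD. The NK cell list stood at 0.165 to 0.457 CPM in Female, 0.486 to 0.531 in Male, 1.504 to 1.598 in WT and 0.673 to 1.24 in KD. Its groups also had the same order within each table as the family. The B cell list, with Ms4a1 at 0, stood at 3.84 to 3.97 CPM in Female, 3.81 to 4.76 in Male, 5.40 to 6.49 in WT and 4.00 to 5.23 in KD. The neutrophil list was at most 0.0972 CPM in Female and Male, 0.268 to 0.466 in WT and 0.0311 to 0.101 in KD, with S100a8 and S100a9 at 0. The erythroid list was at most 0.0339 CPM in any library. The part of these cell types in the results was not tested. In bulk samples, fewer cells that express a gene and less RNA of it per cell cannot be told apart.

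Summed over the 10 members, the family stood at 313 to 316 CPM in Female and at 896 to 909 in Male. In the second table it stood at 681 to 688 CPM in WT and 358 to 365 in KD. The groups of each table did not overlap. These sums include Ifi206 and Ifi209, whose values led to the choice of the family, so they are a description with no test.

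**Figure D1:**
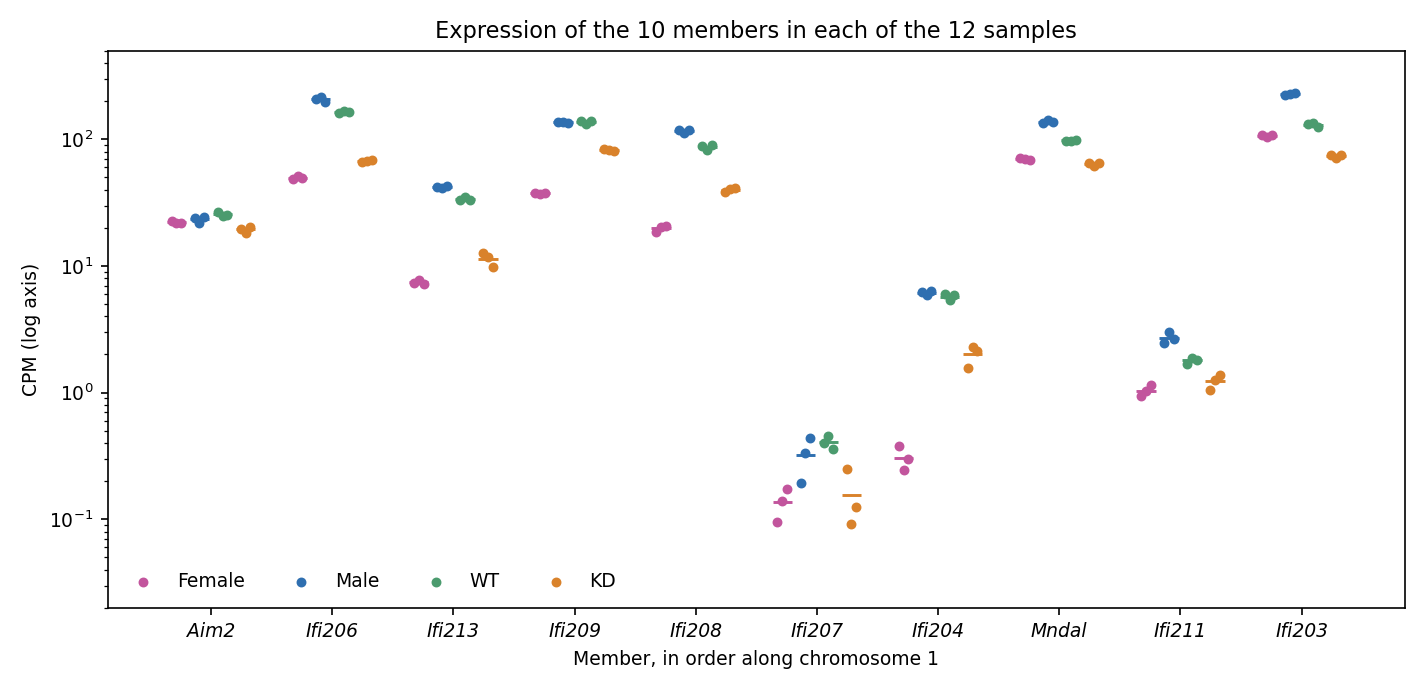
Expression of the 10 members in CPM on a log axis, with 1 point per sample (3 per group) and a bar at the group mean. Aim2 overlaps between Female and Male, while the other 9 members are higher in Male than in Female and all 10 are lower in KD than in WT. These counts include Ifi206 and Ifi209, which led to the choice of the family. Of all genes tested, 28.6% are higher in Male with no overlap, and 23.6% are lower in KD with no overlap.

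Male was first compared with Female, which asks how far the family differs between activated cells of the sexes. Of the 8 members that did not lead to the choice, 7 rose in Male (edgeR, adjusted p under 0.05 over all genes) and Aim2 did not pass. Over all 20208 genes tested, 23.5% were called higher in Male. The rise reached 1 log2 unit in 6 of the 8, against 3.46% of all genes, and 7 of the 8 had every Male sample above every Female sample, against 28.6% of all genes. The median of the 8 was 1.30 in log2 units, beside 0.011 over all genes tested. Since the family was picked for the behaviour of 2 of its genes, this count is no independent support.

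Ifi206, which shares transcript sequence with Ifi213 and Ifi208, was at 48.9, 50.9 and 49.6 CPM in Female and 207, 216 and 199 CPM in Male. Ifi209, also known as Pyhin1, was at 37.9, 37.2 and 37.5 CPM in Female and 137, 138 and 135 CPM in Male. Both genes were higher in each Male sample than in any Female sample, with log2 fold changes of 2.06 and 1.86.

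Ifi208 and Ifi213 encode proteins, also named Pydc3 and Pydc4, known for a pyrin domain without a HIN domain. Ifi208 was at 18.6, 20.4 and 20.8 CPM in Female and 119, 113 and 119 CPM in Male, or 2.55 in log2 units (standard error 0.044, adjusted p 4.81e-11 by edgeR). Ifi213 rose from 7.38, 7.78 and 7.21 CPM to 42.1, 40.9 and 42.8 CPM, or 2.49 in log2 units (standard error 0.046, adjusted p 7.46e-11 by edgeR). The groups did not overlap in either gene.

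Ifi204, the mouse gene most often set beside human IFI16 for its role in sensing DNA upstream of STING, had the largest log2 fold change of the 10. It was nearly silent in Female, with 32, 23 and 29 counts, and held 578, 548 and 565 counts in Male. In CPM this was 0.307 ± 0.067 against 6.16 ± 0.235 (SD, n = 3), or 4.33 in log2 units (standard error 0.17, adjusted p 1.20e-08 by edgeR). Of all genes tested, 99.9% had a lower value.

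Ifi203 and Mndal, whose products are nuclear HIN-domain proteins, were the members with the highest CPM in Female. Ifi203 was at 107, 104 and 109 CPM in Female and 224, 229 and 231 CPM in Male, or 1.09 in log2 units (standard error 0.025, adjusted p 3.00e-10 by edgeR). Mndal was at 71.3, 69.6 and 68.0 CPM in Female and 135, 141 and 136 CPM in Male, or 0.98 in log2 units (standard error 0.028, adjusted p 1.28e-09 by edgeR). Both about doubled, and the groups did not overlap.

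Ifi211 and Ifi207 were expressed at low levels. Ifi211 held 79, 97 and 111 counts in Female and 229, 278 and 233 in Male, or 1.38 in log2 units (standard error 0.16, adjusted p 4.21e-05 by edgeR). Ifi207 held 8, 13 and 17 counts in Female and 18, 31 and 39 in Male, or 1.23 in log2 units (standard error 0.46, adjusted p 0.0476 by edgeR). The call of Ifi207 was lost without any 1 of the Female samples, Male replicate 2 or Male replicate 3 (edgeR adjusted p 0.0588 to 0.197). It was also lost with the replicate number as a block (edgeR adjusted p 0.0529), with DESeq2, with limma-voom and without a low-count filter (adjusted p 0.0661, 0.0624 and 0.0664).

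Aim2 was at 22.8, 21.7 and 21.9 CPM in Female and 23.8, 21.8 and 24.6 CPM in Male. The samples overlapped, with a log2 value of 0.082 (SE 0.051, edgeR adjusted p 0.220). Over the alternatives that kept all samples, the adjusted p of Aim2 was between 0.159 and 0.385. With a sample left out, the edgeR adjusted p was between 0.0664 (without Male replicate 2) and 0.557.

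KD was then compared with WT, which asks how the family stands in male cells with reduced Kdm5d expression. All 8 members that did not lead to the choice fell in KD (edgeR, adjusted p under 0.05), where 18.4% of 20413 genes were called lower. The fall reached 1 log2 unit in 4 of the 8, against 1.67% of all genes, and all 8 had every KD sample below every WT sample, against 23.6% of all genes. The median of the 8 was -0.97 in log2 units, beside 0.012 over all genes tested. The same restriction on reading this count holds as above.

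Ifi206 was at 162, 168 and 163 CPM in WT and 65.9, 67.7 and 68.6 CPM in KD, with a log2 fold change of -1.28. Ifi209 was at 140.4, 131 and 138 CPM in WT and 83.6, 82.5 and 81.4 CPM in KD, with a log2 fold change of -0.73. In both genes each KD sample lay below each WT sample.

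Ifi213 had the lowest log2 fold change of the 10 in KD. It fell from 33.1, 34.8 and 33.4 CPM in WT to 12.8, 11.7 and 9.82 CPM in KD, or -1.57 in log2 units (standard error 0.080, adjusted p 2.68e-07 by edgeR). Ifi208 fell from 88.6, 82.6 and 90.01 CPM to 38.2, 40.6 and 41.1 CPM, or -1.12 in log2 units (standard error 0.043, adjusted p 3.45e-08 by edgeR). Ifi204 fell from 5.96, 5.37 and 5.85 CPM to 1.58, 2.31 and 2.12 CPM, or -1.51 in log2 units (standard error 0.15, adjusted p 2.28e-05 by edgeR). KD samples of these 3 genes were all below the WT samples and, read across tables that were scaled separately, above the Female samples.

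Ifi203 and Mndal changed less than Ifi213, Ifi208 and Ifi204. Ifi203 fell from 132, 134 and 126 CPM in WT to 74.7, 71.7 and 74.9 CPM in KD, or -0.83 in log2 units (standard error 0.033, adjusted p 4.39e-08 by edgeR). Mndal fell from 97.4, 97.6 and 98.9 CPM to 65.3, 61.5 and 65.2 CPM, or -0.61 in log2 units (standard error 0.032, adjusted p 2.75e-07 by edgeR). In both, the KD samples were also below the values of the Female samples in the other table.

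Aim2 fell in KD, from 26.5, 24.9 and 25.3 CPM in WT to 19.7, 18.3 and 20.4 CPM. Its log2 value of -0.39 (SE 0.051, edgeR adjusted p 0.000172) was the smallest in size among the 10, and the groups did not overlap. The adaptor Pycard also fell, with a log2 value of -0.26 (edgeR adjusted p 0.0028), and Casp1 had -0.067 (edgeR adjusted p 0.555).

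Ifi211 held 184, 181 and 177 counts in WT and 84, 137 and 134 in KD, or -0.54 in log2 units (standard error 0.17, adjusted p 0.0316 by edgeR). Ifi207 held 44, 44 and 35 counts in WT and 20, 10 and 12 in KD, or -1.41 in log2 units (standard error 0.42, adjusted p 0.0240 by edgeR). These 2 calls depended on the samples included. That of Ifi211 was lost without WT replicate 1, 2 or 3 or KD replicate 1 or 2 (edgeR adjusted p 0.0530 to 0.0925), and that of Ifi207 without WT replicate 1 or 2 or KD replicate 2 or 3 (edgeR adjusted p 0.0617 to 0.0819).

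**Figure D2:**
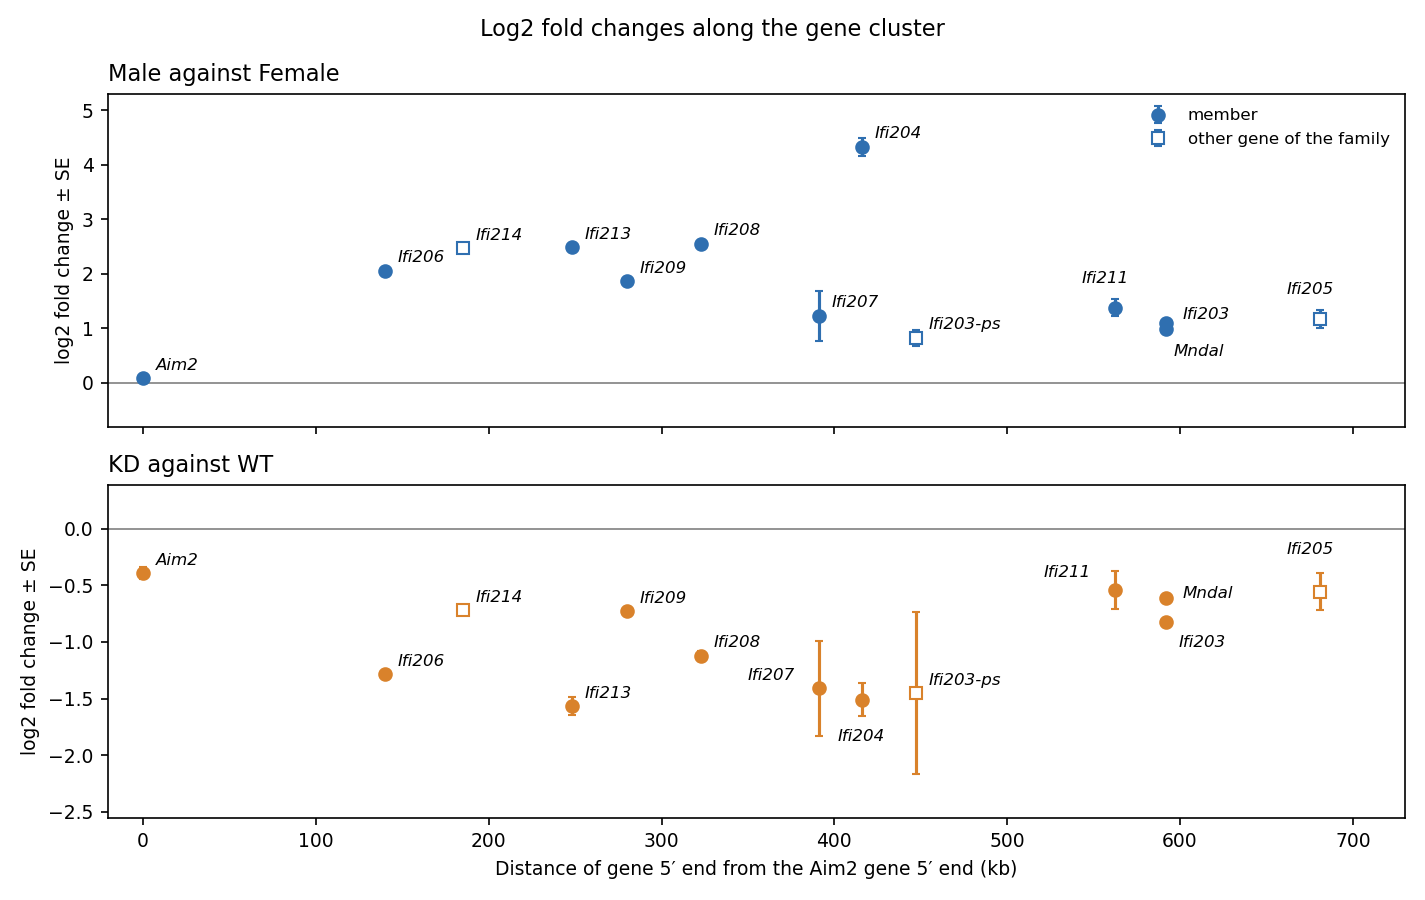
Log2 fold changes with standard errors for Male against Female (top) and KD against WT (bottom). Filled circles are members and open squares are other family genes. Values are plotted against the distance of the 5′ end of the gene body from that of Aim2, not against the RefSeq starts. In Male the genes from Ifi206 to Ifi208 are at 1.86 to 2.55, Ifi204 is at 4.33, Mndal, Ifi211 and Ifi203 are at 0.98 to 1.38, and Aim2 is near 0.

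Values varied along the cluster, also between genes side by side, such as Ifi207 at 1.23 and Ifi204 at 4.33 in Male. Ifi206, Ifi213, Ifi209 and Ifi208, which are neighbours, had log2 fold changes of 1.86 to 2.55 in Male and -1.57 to -0.73 in KD. Mndal, Ifi211 and Ifi203 at the other end had 0.98 to 1.38 in Male and -0.83 to -0.54 in KD. Ifi214, a family gene outside the list that lies between Ifi206 and Ifi213, rose in Male with 2.46 and fell in KD with -0.72 (edgeR adjusted p 1.09e-09 and 9.53e-08). Ifi205 rose with 1.16 and fell with -0.56 (edgeR adjusted p 0.000145 and 0.0236). Ifi202b had 0 counts in all 12 samples, which allows up to 3 counts in a library. The pseudogene Ifi203-ps rose in Male with 0.82 (edgeR adjusted p 0.000704), had -1.45 in KD (edgeR adjusted p 0.151), and held 0 counts in KD replicate 1 but 85 in each of the other KD samples.

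Genes beside the cluster were silent or close to it. Mptx1 had 0 counts in all 12 samples, and Ackr1 had at most 3. Cadm3, whose body overlaps that of Aim2 on the opposite strand with no shared exon bases, had 0 counts in Female, Male and KD and 19, 13 and 13 in WT. At these low counts it was tested in KD against WT alone and called lower in KD (edgeR adjusted p 0.0019), as the family was.

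Levels of different members were compared per kb of annotated exon (CPM per kb), since longer transcripts give more reads. In Female, Mndal stood first at 19.2 CPM per kb, followed by Ifi206 at 16.3 and Ifi203 at 15.9, which overlapped. Ifi209 was at 10.6, Aim2 at 6.31, Ifi208 at 3.79, Ifi213 at 1.09, Ifi211 at 0.580, Ifi204 at 0.0862 and Ifi207 at 0.0397 CPM per kb. In Male, Ifi206 stood first at 67.8 CPM per kb, and Ifi209 at 38.5 overlapped with Mndal at 37.9. Ifi203 followed at 34.0 and Ifi208 at 22.3. Aim2 at 6.68 overlapped with Ifi213 at 6.13, and Ifi204 at 1.73 overlapped with Ifi211 at 1.51 CPM per kb. Aim2 thus stood below 4 other members in Female and below 5 in Male, while its own difference did not pass the test.

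In WT the order of means was that of Male, from Ifi206 at 53.7 and Ifi209 at 38.5 CPM per kb down to Ifi207 at 0.119, and no neighbours in the order overlapped. In KD, Ifi209 stood first at 23.3 CPM per kb and Ifi206 second at 22.1. The ratio of Ifi209 to Ifi206 counts was 0.781 to 0.867 in WT and 1.19 to 1.27 in KD. It was 0.732 to 0.775 in Female and 0.639 to 0.678 in Male. Ifi209 therefore varied less than Ifi206 between the groups of both tables.

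Members share transcript sequence, which bears on how reads are assigned. Of the distinct 31-base subsequences of each gene's annotated transcripts, Ifi211 shared 78.9% with other genes of the cluster, Ifi209 46.8%, Ifi208 33.4%, Ifi204 29.4%, Ifi213 25.6%, Mndal 25.3%, Ifi206 21.9%, Ifi203 20.7%, Ifi207 13.7% and Aim2 0%. Sequence found in genes outside the cluster made up 14.5% of Ifi206, 5.8% of Ifi204, 4.9% of Aim2 and at most 3.9% of each other member. How reads from shared sequence were assigned is not given in the sources used here, and counts of genes with shared sequence are uncertain.

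**Figure D3:**
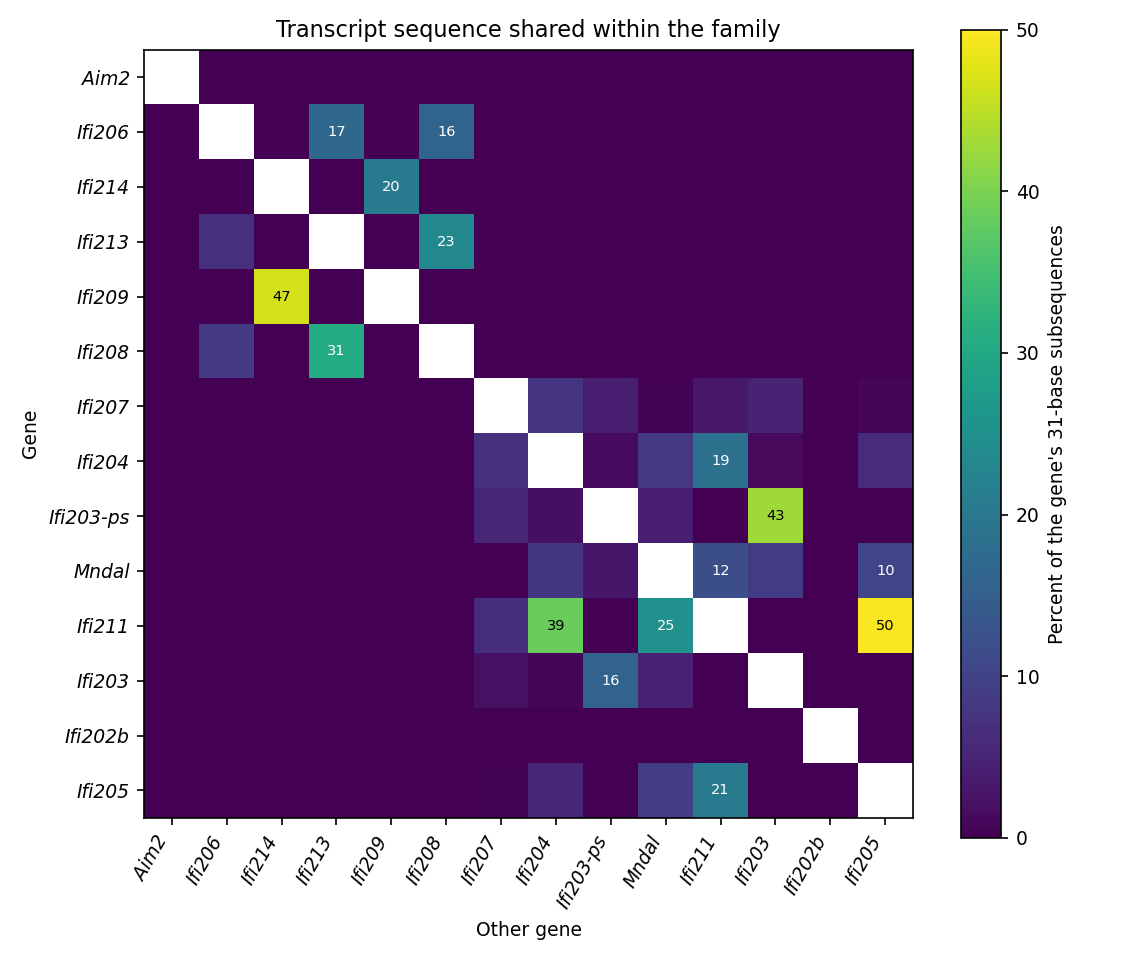
Percent of a gene's 31-base transcript subsequences (row) that also occur in another gene of the cluster (column), in order along the chromosome, with values of 10 or more printed. Ifi206, Ifi213 and Ifi208 share sequence with each other, Ifi209 with Ifi214, and Ifi211 with Ifi205, Ifi204 and Mndal, while Aim2 and Ifi202b share none with the cluster.

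Counts were therefore also summed over genes that shared at least 10% of these subsequences, an alternative added after the data had been seen. Ifi206, Ifi213 and Ifi208 together were at 77.2 CPM in Female and 366 in Male, a log2 value of 2.25 (SE 0.026), and at 285 CPM in WT and 119 in KD, a log2 value of -1.26 (SE 0.021). Ifi209 with Ifi214 had 2.03 (SE 0.027) and -0.72 (SE 0.024). Ifi203 with Ifi203-ps had 1.09 (SE 0.025) and -0.83 (SE 0.032). Ifi204, Mndal, Ifi211 and Ifi205 together had 1.05 (SE 0.027) and -0.65 (SE 0.029), a sum made up mostly of Mndal, in which the larger values of Ifi204 alone (4.33 and -1.51) cannot be seen. Directions were the same as for the single genes in all 4 sums.

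**Figure D4:**
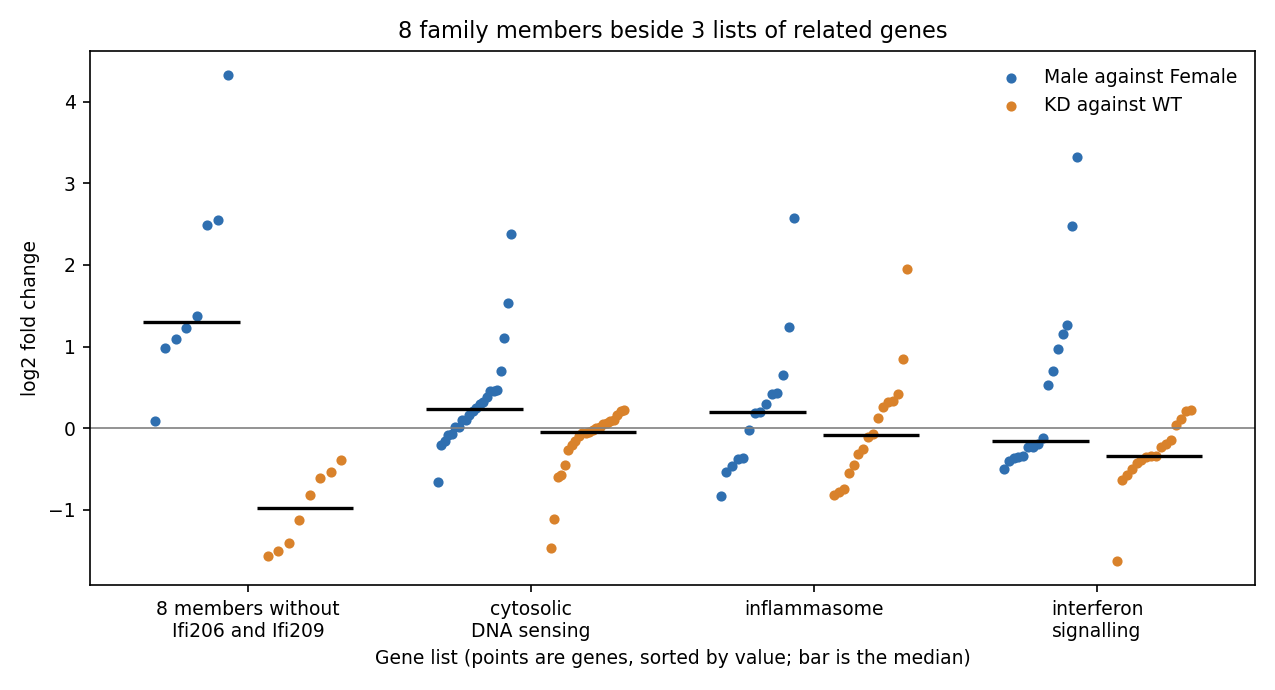
Log2 fold changes of the 8 members other than Ifi206 and Ifi209 and of 3 lists of related genes, with 1 point per gene tested and a bar at the median, for Male against Female and KD against WT. The medians of the 8 members are 1.30 and -0.97, and those of the 3 lists lie between -0.34 and 0.23.

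Genes that act beside the family were examined from 3 lists, which were chosen with earlier results of these data known. Over all genes, 49.8% were called in Male against Female (23.5% higher, 26.3% lower) and 35.1% in KD against WT (16.8% higher, 18.4% lower). Of 22 genes tested for cytosolic DNA sensing, 13 rose and 3 fell in Male (median log2 fold change 0.23), and 3 rose and 8 fell in KD (median -0.052). The DNA sensor Cgas rose from 30.6 CPM in Female to 34.1 in Male (log2 fold change 0.16, edgeR adjusted p 0.0095) and had 0.058 in KD (edgeR adjusted p 0.507). Its effector STING (Tmem173) had log2 fold changes of 0.014 and 0.013, and the downstream factor Irf3 of 0.010 and 0.0072, none past the threshold. Irf7, an interferon-induced transcription factor, rose from 18.9 to 98.4 CPM in Male and fell from 65.9 to 23.9 CPM in KD, with log2 fold changes of 2.38 and -1.47 (edgeR adjusted p 1.11e-11 and 3.26e-09). Zbp1, a sensor of Z-form nucleic acids, rose with 1.53 and fell with -1.12 (edgeR adjusted p 6.09e-11 and 6.41e-09). Samhd1, a nucleotide hydrolase, rose with 0.21 and fell with -0.60.

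Of 14 inflammasome genes tested in Male against Female, 4 rose and 3 fell (median 0.19), and of 16 tested in KD against WT, 4 rose and 5 fell (median -0.090). Pycard rose in Male with a log2 value of 0.41 (edgeR adjusted p 2.75e-05), and Casp1 had -0.022 (edgeR adjusted p 0.861). Casp8 rose with 0.66 in Male and fell with -0.32 in KD. Nlrp3, the sensor of another inflammasome, was the largest of the list in KD and rose from 1.39 to 5.37 CPM, a log2 value of 1.95 (edgeR adjusted p 3.32e-06). Il1b, a substrate of caspase-1, had at most 3 counts in any sample.

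All 16 interferon signalling genes tested in Male against Female were called, 7 higher and 9 lower (median -0.15). In KD against WT 3 rose and 11 fell (median -0.34). The receptor genes Ifnar1, Ifnar2, Ifngr1 and Ifngr2 fell in Male with log2 fold changes of -0.50, -0.24, -0.19 and -0.36, opposite to the family. In KD they had -0.24, -0.35, -0.64 and -0.19, and the first 3 were called lower (edgeR adjusted p 2.05e-05, 1.09e-05 and 6.10e-09), as the family was. Stat2, a subunit of the factor that binds ISRE elements, rose in Male with 1.26 (edgeR adjusted p 1.12e-09). In KD, Stat2 fell with -0.50 (edgeR adjusted p 3.51e-07), while Irf1 rose with 0.22 (edgeR adjusted p 4.04e-05), opposite to the family. Usp18, an interferon-induced brake on the receptor, rose with 3.33 and fell with -1.63 (edgeR adjusted p 1.11e-11 and 1.08e-08). Ifng, which encodes interferon gamma, rose from 0.399 to 2.22 CPM in Male (edgeR adjusted p 1.90e-05) and fell from 6.55 to 4.86 CPM in KD (edgeR adjusted p 0.0039), and Ifnb1 had at most 8 counts in any sample.

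The genes whose values were most like those of Ifi206 and Ifi209 were found by the root mean square difference of log2 CPM, centred within each table, over the 12 samples and 19529 genes tested in both tables. These distances describe the same libraries and carry no test. Nearest to Ifi206 were Prf1, which encodes perforin, at 0.077 log2 units, Phf11c at 0.084, Rnf213 at 0.087, Ddx60 at 0.094 and Phf11a at 0.10. Nearest to Ifi209 were Trim30a at 0.053, the sterol synthesis genes Cyp51, Lss and Hmgcs1 at 0.080, 0.087 and 0.088, and AW011738 at 0.089. None of these lies on chromosome 1. Within the family, the member nearest to Ifi206 was Ifi208 at 0.20, with 22 genes nearer, and the farthest was Ifi204 at 0.80.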

How the data were processed

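Raw gene counts, as deposited by the authors, came in 2 tables, the first holding Female and Male and the second WT and KD, with 3 samples in each group. Per the submitters' processing notes, bcl2fastq 2.20.0, HISAT2, StringTie and DESeq2 were used with mm10, with no role or order given. Per the labels' protocols the libraries were stranded and depleted of ribosomal RNA. The annotation and the use of strand in counting are not given in the sources used here. GENCODE M21 matched 55227 of 55487 identifiers. Each table was fitted on its own 6 samples over all genes with edgeR 4.0.16 in R 4.3.3 (TMM, filterByExpr with its minimum count of 10, quasi-likelihood test, Benjamini-Hochberg adjustment, threshold 0.05). Standard errors came from the size of the log2 fold change over the root of its F statistic. CPM used TMM-scaled library sizes per table.

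Replicate pairs differed by a mean chi-square per gene of 10.0 to 86.2, so no library was a copy of another. Floors of 3 counts cover counting error only. Alternatives were DESeq2 size factors, upper-quartile factors, no low-count filter, DESeq2 1.42.0, limma-voom (limma 3.58.1), 1 fit of all 12 samples, counts divided by 4, the replicate number as a block, and leaving out each sample. The text names the members, the other family genes and the nearest genes beside the cluster. From each list it names defining genes and up to 4 called genes per direction with the smallest p, and the 5 genes nearest to Ifi206 and to Ifi209. Il1b, Ifnb1, Ifng, Ifnar2 and Ifngr2 were named after their values were seen. Values of 2 genes that this rule names are not reported here. The members and lists were chosen with earlier results of these data known.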

Additional observations from a re-analysis of the deposited data

How the results depend on the processing

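No log2 fold change of the 10 members or of Kdm5d reversed under the other settings planned for them or when a sample was left out (12 fits in all, 6 per table). With counts summed over genes that share sequence, run for 8 members (not Aim2, Ifi207 or Kdm5d), none reversed either. Of the 8 members that did not lead to the choice, 7 were called higher in Male and 8 lower in KD, against 23.5% and 18.4% of all genes. With a minimum of 1 log2 unit these counts were 6 and 4, against 3.46% and 1.67% of all genes. Over the other settings they were 6 to 7 and 7 to 8, and with a sample left out 6 to 7 and 6 to 7. Calls were lost for Ifi207 and Ifi211 only, at 8 to 44 and 79 to 278 counts a library, and that of Ifi211 in KD only when a sample was left out. The cause was not tested. With counts divided by 4, Ifi207 did not pass the low-count filter in either table and could not be fitted, while Ifi211 kept both calls (edgeR adjusted p 3.29e-05 and 0.0298). Kdm5d was between -1.21 and -1.18 over the settings.

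Sample titles number the replicates 1 to 3 in each group, and nothing states that equal numbers share a mouse or culture. Correlations of the deviations of same-numbered samples were -0.0011 to 0.018 for Female and Male and -0.040 to 0.021 for WT and KD. With the replicate number as a block, 6 of the 8 members were called higher in Male and 8 lower in KD. Over all genes in either direction, 9740 of 20208 were called in Male against Female, 4563 of them higher in Male. In KD against WT 6688 of 20413 were called, 3147 of them higher in KD. The log2 fold change of Kdm5d with the block was -1.21.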

Other observations

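Ifi205 and Ifi211 gave nearly equal counts in each library, with ratios of 0.856 to 1.05 over the 12 samples. Their annotated transcripts share 857 of the 31-base subsequences, which is 49.5% of those of Ifi211 and 20.5% of those of Ifi205. The counts of Mndal set against those of Ifi203, its neighbour with an overlapping gene body, were 0.591 to 0.615 in Male, 0.625 to 0.667 in Female, 0.726 to 0.786 in WT and 0.858 to 0.874 in KD. The annotated exons of these 2 genes overlap by 37 bases.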
